A study of Homo sapiens with 16 samples.

Results

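MYB and HBS1L are neighbouring genes on human chromosome 6, and the stretch between their starts is known for enhancers that act on MYB in red cell precursors. Contacts of this stretch were followed here through a series in which chromatin was cut for different lengths of time. The members were the 20 kb bins that lie mostly over 3 segments of build hg19, HBS1L at 135.281 to 135.424 Mb of chromosome 6, the intergenic part at 135.424 to 135.502 Mb and MYB at 135.502 to 135.541 Mb. These were 13 of 137198 usable bins, of which 7 were assigned to HBS1L, 4 to the intergenic part and 2 to MYB. Their contacts were read within a window of 2000 kb, from 134.5 to 136.5 Mb, which holds 100 bins, all usable.

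MYB encodes a transcription factor that keeps blood progenitor cells dividing, and its level falls as red cells mature. HBS1L encodes a protein that helps to release ribosomes stalled on messenger RNA. An enhancer can act on a distant promoter when the chromatin between them folds. Hi-C measures how often stretches of DNA meet in this way, by ligating cut ends that are neighbours in the fixed nucleus and sequencing the products.

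The cells were K562, an established human leukaemia line with rearranged chromosomes, whose copy number over this window was not analysed here. Nuclei of formaldehyde-fixed cells were cut with HindIII, an enzyme that cleaves at AAGCTT, for 0.25, 1, 3 or 12 h, and every library carried the same fixation, enzyme and ligation in nuclei. Each time had 2 libraries, and 12 h, the longest digestion, was the time against which the others were set. The labels name replicates without saying whether they came from separate cultures, so p-values rest only on the spread between libraries, which may be technical. In the limma fits that spread is pooled over all 8 libraries and drawn towards that of features of like level. Each SE of a log2 difference is computed from it.

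The 250 bases before the annotated start of each gene are shown because the enzyme can cut, and Hi-C can report, only where its site occurs, and because they precede the starts of the genes named here. They come from RefSeq on GRCh38.p14 and are written 5′ to 3′ along the strand of the gene. MYB lies at chr6:135181058-135181307 on the plus strand and HBS1L at chr6:135054823-135055072 on the minus strand. Capitals mark GGCGGG, a motif bound by factors of the Sp family, on either strand.
MYB: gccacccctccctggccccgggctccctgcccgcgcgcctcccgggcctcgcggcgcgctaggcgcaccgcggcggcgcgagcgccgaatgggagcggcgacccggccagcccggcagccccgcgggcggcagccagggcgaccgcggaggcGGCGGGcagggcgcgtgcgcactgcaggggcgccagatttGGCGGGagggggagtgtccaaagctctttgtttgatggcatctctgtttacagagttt
HBS1L: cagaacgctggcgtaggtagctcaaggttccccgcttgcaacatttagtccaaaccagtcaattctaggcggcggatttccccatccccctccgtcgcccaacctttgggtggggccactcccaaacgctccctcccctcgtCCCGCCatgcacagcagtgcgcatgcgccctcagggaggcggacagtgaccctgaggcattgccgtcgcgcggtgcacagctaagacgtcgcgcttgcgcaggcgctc

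The MYB sequence was 75.6% G and C and held 34 CpG steps, and the HBS1L sequence was 64% G and C with 22. GGCGGG occurred 2 times before MYB and 1 time before HBS1L, and 42.5% of 35116 such windows hold it on either strand. AAGCTT, the HindIII site, occurred in neither, as in most windows, since 5.02% hold it. GATAA, the core of the motif bound by GATA factors, occurred in neither, and 20.4% of windows hold it. No match overlapped another. RefSeq orders the genes SGK1, ALDH8A1, HBS1L, MYB, AHI1, PDE7B and MTFR2. In that annotation HBS1L is 94.4 kb long and 126.5 kb from MYB, against 143 kb and 78 kb in the hg19 interval used here. Some bins assigned to HBS1L may therefore lie between the genes in the newer annotation. The edges of HBS1L bin 135360001 lie −142 and −122 kb from the MYB start, so a point 126.5 kb before MYB falls inside it. If the builds keep that distance, this bin holds the newer HBS1L start. Bins 135380001 and 135400001, assigned to HBS1L here, would then lie between the genes. Positions were not mapped from one build to the other.

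Across the genome the 8 libraries held 62777251 to 176412222 contacts, with 0.25 h replicate 2 the shallowest and 12 h replicate 1 the deepest. Contacts within a chromosome made up 88.0% to 90.3%. As a check of the cell line, BCR and ABL1, the genes whose fusion marks K562, shared 851 to 4404 contacts per library, at least 4357 times the mean of equally sized blocks between chromosomes 9 and 22. Contact counts speak at most to counting error. Whether PCR copies remain among them was not checked here, and such copies would not be independent molecules.

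The MYB start lay in a bin that took a larger share of the contacts between bins after short digestion than after 12 h. Levels are in CPM, contacts leaving the bin per 1000000 contacts leaving any usable bin, where a contact counts in both of its bins and contacts inside a bin are left out. The bin with the MYB start, chr6:135500001-135520000, had 14.0 and 15.6 CPM at 0.25 h, 13.5 and 13.3 at 1 h, 13.9 and 14.7 at 3 h, against 11.2 and 10.8 at 12 h. All 6 libraries of the shorter digestions lay above both 12 h libraries. The difference of the 2 libraries at 0.25 h from the 2 at 12 h was 0.43 ± 0.05 on the log2 scale, a 1.35-fold level. The SE is that of limma, with the spread pooled over all 8 libraries, and the adjusted p was 1.31e-07 in limma fitted over all bins. It was 0.29 at 1 h (adjusted p = 2.91e-05, limma) and 0.38 at 3 h (adjusted p = 4.84e-06, limma). Per 1000000 of all contacts of the library, those inside a bin included, it had 22.2 and 23.6 at 0.25 h against 19.7 and 19.1 at 12 h, and the log2 difference was 0.24 ± 0.04 (SE, adjusted p = 6.85e-05, limma). Among all bins the MYB start bin stood at percentile 99.3 of these differences at 0.25 h, 98.1 at 1 h and 99.8 at 3 h. The second MYB bin, chr6:135520001-135540000, differed less. It had 11.7 and 11.5 CPM at 0.25 h against 10.4 and 10.3 at 12 h, a log2 difference of 0.16 ± 0.04 (SE, adjusted p = 0.00168, limma), and over all contacts the difference was −0.02 and missed the threshold.

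Over HBS1L, 6 of 7 bins rose in CPM at 0.25 h against 12 h, beside 20.9% of all bins. The bin with the largest difference, chr6:135400001-135420000 beside the intergenic part, had 16.1 and 17.2 CPM at 0.25 h, 15.8 and 15.1 at 1 h, 15.6 and 15.6 at 3 h, against 12.8 and 12.7 at 12 h. Its 12 h libraries were again the lowest pair, with a log2 difference of 0.38 ± 0.04 (SE, adjusted p = 1.05e-07, limma). In chr6:135360001-135380000 the values were 15.9 and 16.6 at 0.25 h, 15.7 and 15.2 at 1 h, 15.1 and 15.9 at 3 h, against 13.6 and 13.1 at 12 h, with a log2 difference of 0.29 between 0.25 and 12 h. The other called HBS1L bins differed by 0.16 to 0.28. The bin at the far end of HBS1L, chr6:135280001-135300000, missed the threshold, with 11.45 and 11.1 at 0.25 h and 10.7 and 10.6 at 12 h (log2 difference 0.08, adjusted p = 0.0864, limma). Over all contacts of the library, only HBS1L bins 135400001 and 135360001 were called higher at 0.25 h, and bin 135280001 was called lower.

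In the intergenic part 3 of 4 bins rose in CPM at 0.25 h, beside 20.9% of all bins. The bin next to MYB, chr6:135480001-135500000, had the highest level of all members. Its libraries gave 17.6 and 18.5 CPM at 0.25 h, 17.5 and 17.8 at 1 h, 17.3 and 17.4 at 3 h, against 15.0 and 15.4 at 12 h, a log2 difference of 0.25 between 0.25 and 12 h (adjusted p = 8.04e-06, limma). The 3 shorter digestions were close to one another and all above 12 h. The bin next to HBS1L, chr6:135420001-135440000, had 15.9 and 17.4 at 0.25 h, 15.6 and 16.6 at 1 h, 15.6 and 15.6 at 3 h, against 13.55 and 13.2 at 12 h (log2 difference 0.31). The bin chr6:135460001-135480000 was the exception in this stretch. It had the lowest level of the members, 4.56 and 5.08 at 0.25 h, 4.85 and 5.02 at 1 h, 5.10 and 5.08 at 3 h, against 4.545 and 4.67 at 12 h, and the 0.25 and 12 h libraries overlapped (log2 difference 0.06 at 0.25 h, adjusted p = 0.37, limma). Over all contacts of the library, bin 135420001 was the only intergenic bin called at 0.25 h, and it was higher.

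**Figure D1:**
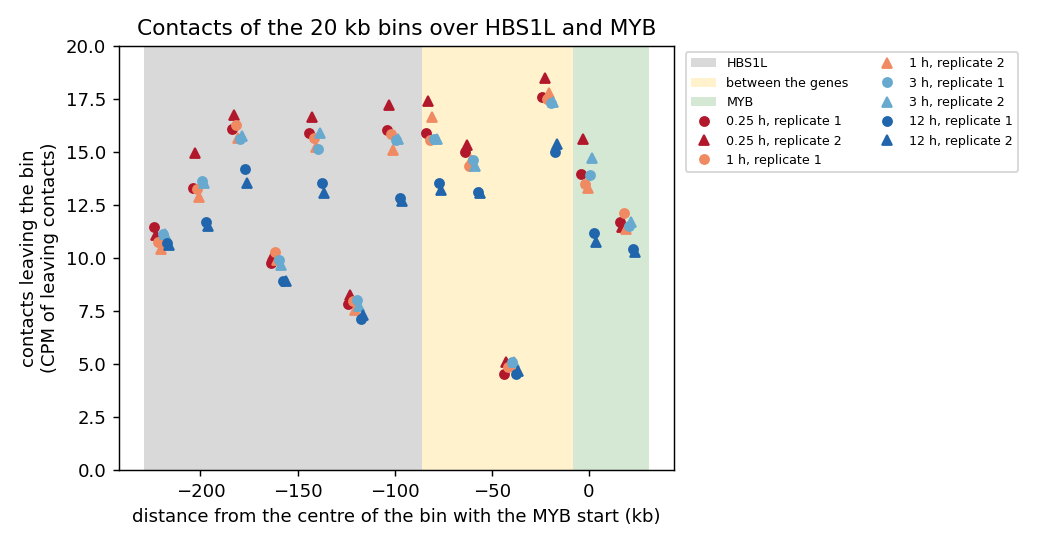
Contacts leaving each member bin per 1000000 contacts leaving any usable bin (CPM, vertical axis) against the distance of the bin from the one with the MYB start (horizontal axis, kb), 1 point per library, spread sideways for clarity, with circles for replicate 1 and triangles for replicate 2. The 12 h libraries of the MYB start bin lie at 11.2 and 10.8, below all 6 libraries of the shorter digestions. In the lowest bin, at 4.545 to 5.10, 0.25 h replicate 1 lies at 4.56, between the 12 h libraries at 4.545 and 4.67. The other libraries of the shorter digestions lie above both.

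In all, 11 of 13 member bins rose in CPM at 0.25 h against 12 h, beside 20.9% of all bins that rose in that comparison. The counts were 10 of 13 at 1 h (18.1% of all bins) and 11 of 13 at 3 h (14.3% of all bins), and no member fell at any time, beside 35.0%, 28.9% and 24.2% of all bins that did. The 3 comparisons share the 12 h libraries. The 12 h libraries were also the deepest, and the part of depth in the differences was not tested. They held the smallest share of contacts inside a bin, 11.5% and 11.7% genome-wide against 20.4% and 24.2% at 0.25 h. Most calls of members were lost when those contacts entered the total but not the count of the bin. With them in both, 10, 10 and 10 of 13 members were called higher at 0.25, 1 and 3 h. In that setting 27505, 23241 and 18868 of all 137198 bins were higher. Over all contacts of the library, a scale chosen after seeing the data, every bin shifted by −0.19 at 0.25 h, −0.13 at 1 h and −0.11 at 3 h, which keeps the order of the bins. There 4, 4 and 5 members were called higher, beside 3.52%, 3.69% and 3.33% of all bins, and 1, 1 and 0 lower, beside 70.4%, 54.6% and 49.1%. The MYB start bin, HBS1L bin 135400001 and intergenic bin 135420001 were called higher at all 3 times. HBS1L bin 135360001 was called higher at 0.25 and 3 h, HBS1L bin 135300001 at 3 h and intergenic bin 135480001 at 1 h, while HBS1L bin 135280001 was called lower at 0.25 h (−0.11) and 1 h (−0.14). The median member difference was then 0.06, 0.05 and 0.07, against −0.23, −0.16 and −0.14 over all bins. In CPM the median member difference was 0.24 at 0.25 h, 0.18 at 1 h and 0.18 at 3 h, against −0.05, −0.03 and −0.03 over all bins. Over chromosome 6 alone the median at 0.25 h was 0.02, and over the 86581 bins whose level lay within the range of the members it was 0.003. In 12 of 13 member bins both 0.25 h libraries exceeded both 12 h libraries, which held for 30.0% of all bins.

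Some of the calls in CPM changed when 1 library was left out, which also leaves the fit fewer libraries. A lost call did not always come with a smaller difference. With all libraries bins 135340001 and 135380001 differed by 0.137 and 0.132 at 3 h. HBS1L bin 135380001 lost its call at 0.25 h without 0.25 h replicate 2 (log2 difference 0.12) or without 12 h replicate 1 (0.14), bin 135280001 gained one without 0.25 h replicate 2 (0.10), and intergenic bin 135460001 gained one without 0.25 h replicate 1 (0.14). At 1 h HBS1L bin 135300001 lost its call without 1 h replicate 1 (0.15). At 3 h bin 135340001 lost its call without 3 h replicate 1 (0.12), 12 h replicate 1 (0.14) or 12 h replicate 2 (0.14), bin 135380001 without any 1 of the 3 h or 12 h libraries (0.11 to 0.16), and intergenic bin 135440001 without 3 h replicate 1 (0.13). With the replicate number as a block, bin 135380001 also rose at 1 h and bin 135460001 at 3 h. That gave 11 and 12 members, beside 20.8% and 17.0% of all bins. With scaling by median-of-ratios size factors in place of the total of leaving contacts, bins called at 0.25 h genome-wide divided into 38409 higher and 38083 lower, against 28639 and 47981, and 12 members were higher. Over all contacts the division was 4826 higher and 96652 lower.

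The rise in CPM was not limited to the members. Of the 39 window bins on the HBS1L side, 23 rose and 1 fell at 0.25 h (median 0.13), and of the 48 on the far side of MYB, 14 rose and 11 fell (median 0.003). Beyond MYB all 11 flank bins up to 240 kb from the MYB start bin rose, by 0.17 to 0.35, beside 20.9% of all bins. The cut at 240 kb was set where this run of called bins ended, so the count follows from the cut. Of the 37 bins farther away, 13 lay above 0 and 24 below it, between −0.23 and 0.15, and 3 rose and 11 fell. Over all contacts of the library 1 bin on the HBS1L side was called higher and 11 lower, and beyond MYB 5 were higher, all within 240 kb, and 31 lower. The value of 0.43 in CPM at the MYB start bin was the highest of the 100 bins, and the neighbouring bins on both sides, 0.25 and 0.16, were lower.

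**Figure D2:**
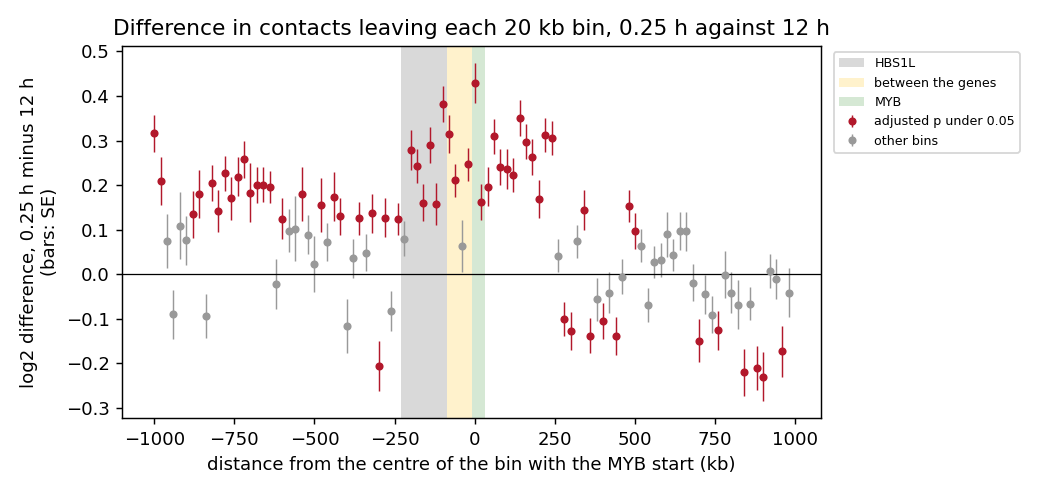
Log2 difference in CPM of contacts leaving each 20 kb bin of the window, 0.25 h minus 12 h, with its SE (vertical axis), against distance from the MYB start bin (horizontal axis, kb), with called bins in red. The MYB start bin, at 0.43, is the highest of the 100 bins, and the unbroken run of red bins above 0 beyond MYB reaches 240 kb, with 3 more called higher farther away.

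Contacts that stay inside a 20 kb bin, which join cut ends very near each other, were a larger share of a member's contacts after short digestion. In the MYB start bin 7.30% and 8.85% of contacts lay inside the bin at 0.25 h, 7.02% and 5.21% at 1 h, 6.41% and 5.64% at 3 h, against 3.18% and 3.65% at 12 h. Both 12 h libraries were the lowest. The log2 difference of the ratio of contacts inside to contacts leaving was 1.31 ± 0.21 (SE, adjusted p = 0.000343, limma) between 0.25 and 12 h. The HBS1L bin chr6:135300001-135320000 went in steps with time, from 19.98% and 20.5% at 0.25 h through 17.8% and 17.6% at 1 h and 16.6% and 15.7% at 3 h to 9.28% and 8.88% at 12 h (log2 difference 1.35 ± 0.12, SE, adjusted p = 3.32e-05, limma). Intergenic bin 135480001 had 18.6% and 21.1% at 0.25 h and 11.4% and 10.2% at 12 h. Intergenic bin 135460001 stood apart again, with 0.312% to 1.02% of its contacts inside it, from 2 to 11 contacts per library, and a log2 difference of −0.13 ± 0.51 (SE, adjusted p = 0.839, limma).

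This rise was common to the genome. At 0.25 h 11 of 13 member bins rose, beside 64.7% of all bins, and the median member difference of 0.89 stood beside 0.82 over all bins. Both 0.25 h libraries exceeded both 12 h libraries in 12 of 13 members, as in 78.0% of all bins. At 1 h 9 of 13 rose (61.7% of all bins) and at 3 h 10 of 13 (56.8%). The MYB start bin, at percentile 75.8 of all bins at 0.25 h, was therefore far less extreme in this measure than in contacts leaving the bin. Without 3 h replicate 1 the count at 3 h was 6 of 13, and the share of all bins fell alongside to 38.3%. Among the MYB bins, the start bin lost its call at 1 h without 1 h replicate 1 (0.64) and at 3 h without 3 h replicate 1 (0.76) or 12 h replicate 1 (0.75). The second MYB bin rose by 0.49 at 0.25 h and missed the threshold at 1 h (0.23) and 3 h (0.20), and its call at 0.25 h was lost without 0.25 h replicate 1 (0.44), 12 h replicate 1 (0.54) or 12 h replicate 2 (0.45). HBS1L bin 135280001, called at 0.25 h by 0.55, lost its call when any of 4 single libraries was left out (0.49 to 0.56).

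Contacts between bins were next compared with the genome mean at the same distance, using the deposited balanced signal, in which every bin has the same total. A ratio of 1 is then the mean contact of 2 bins that far apart. Relative to that mean, the MYB start bin met every HBS1L bin more than the bins adjoining it. Its ratio was 0.86 ± 0.04 (SD, n = 8 libraries) with the adjoining intergenic bin 135480001, 1.95 ± 0.24 with 135460001, 1.53 ± 0.16 with 135440001 and 1.30 ± 0.22 with 135420001. Over HBS1L it climbed from 2.05 ± 0.23 at 135400001 to 2.71 ± 0.50 at 135380001 and 3.20 ± 0.38 at 135360001, and then declined to 2.37, 2.32, 1.97 and 1.84 in the bins farther away.

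The peak with bin 135360001 was made of 779 contacts over the 8 libraries and stood at percentile 99.6 of all pairs at that distance. Its ratios were 3.26 and 3.17 at 0.25 h, 3.27 and 3.81 at 1 h, 3.23 and 3.28 at 3 h, against 3.20 and 2.41 at 12 h. One 12 h library was the lowest and the other lay among the rest. The log2 difference between 0.25 and 12 h was 0.20 ± 0.22 (SE, adjusted p = 0.905, limma). The 4 highest of the 78 member pairs all joined the MYB start bin with bins assigned to HBS1L, 135360001, 135380001, 135340001 and 135320001 in that order. In the newer annotation bin 135380001 may lie between the genes. The lowest, 0.67, joined intergenic bin 135480001 with the second MYB bin.

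**Figure D3:**
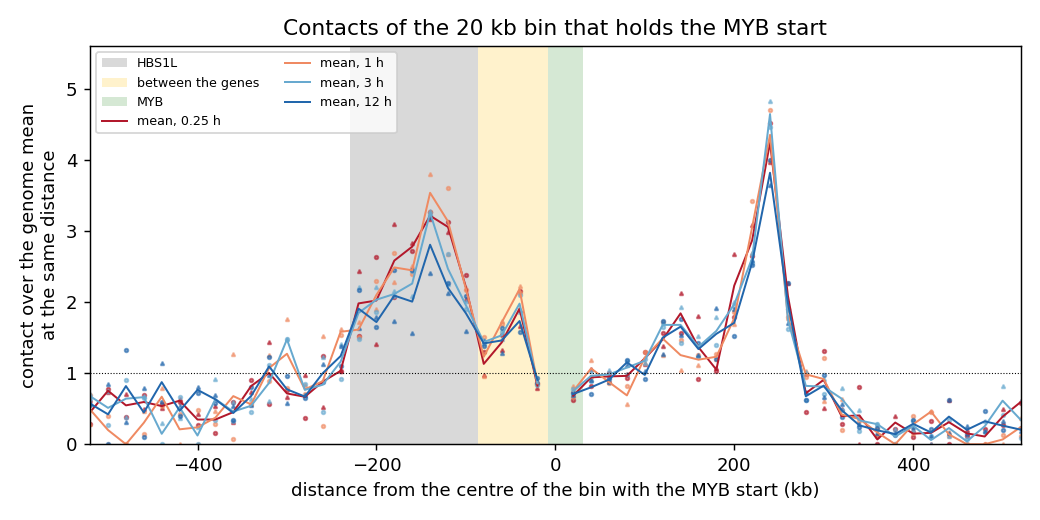
Contact of the MYB start bin with each other bin over the genome mean at the same distance (vertical axis) against distance (horizontal axis, kb, within 520 kb), with points for libraries, lines for the mean of each digestion time and a dotted line at 1. The ratio reaches 3.20 over HBS1L and 4.26 at 240 kb on the far side of MYB, and the 4 times follow the same course.

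By segment, all 14 pairs of an HBS1L bin with a MYB bin exceeded the median pair at their distance, and 12 exceeded its 90th percentile. Between HBS1L and the intergenic part 25 of 28 pairs exceeded the median and 13 the 90th percentile. Between the intergenic part and MYB the counts were 6 and 2 of 8, and within HBS1L 9 and 3 of 21. Each segment ratio is 1 value per library over all its pairs, and need not equal the plain mean of the pair ratios. Its mean over the 8 libraries was 1.96 ± 0.13 (SD) between HBS1L and MYB, 1.39 ± 0.06 between HBS1L and the intergenic part and 1.12 ± 0.07 between the intergenic part and MYB. It was 1.13 ± 0.03 within HBS1L, 1.11 ± 0.05 within the intergenic part and 0.72 ± 0.06 within MYB. The segment ratios between the intergenic part and MYB, within HBS1L and within the intergenic part did not differ beyond their spread between libraries. On the other side of HBS1L the members met the window bins less often than the mean, at 0.71 for HBS1L, 0.62 for the intergenic part and 0.72 for MYB. Beyond MYB the ratios were 0.92, 0.87 and 1.11 in the same order. Within HBS1L the segment ratio lay above 1, while the median of the mean ratios of its 21 single pairs lay below it, at 0.869. In the first run HBS1L held 2 bins of 50 kb, and their 1 pair had a ratio of 0.785, with all 8 libraries at 0.732 to 0.871. Without balancing all 12 mean ratios were 1.5 to 2.14 times as high, and 6 of them went from below 1 to above it, the HBS1L side at 1.14, 1.03 and 1.08, the far side of MYB at 1.85 for HBS1L and 1.79 for the intergenic part, and the pair within MYB at 1.16.

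The ratio between HBS1L and MYB was 2.07 and 2.13 at 0.25 h, a mean of 2.05 ± 0.08 (SD, n = 2) with 2.00 as the lower value at 1 h, 1.82 and 1.91 at 3 h, against 1.89 and 1.78 at 12 h. The 4 libraries of the shortest digestions lay above the 4 of the longer ones. No other segment ratio was split in this way. The split was seen in the values, was not a planned comparison and was not tested. The mean of 0.25 h was 2.10 ± 0.04 (SD, n = 2) and that of 12 h 1.83 ± 0.08. Without balancing 1 h replicate 2, at 3.70, lay below 3 h replicate 2, at 3.87, and the 12 h libraries were the lowest, at 3.015 and 2.74. In the first, shallower sequencing run of the same libraries the order was not seen, since the 0.25 h libraries gave 1.98 and 2.56 and the 12 h libraries 2.26 and 1.41. Between the intergenic part and MYB the values had no order with time, with 1.16 and 0.95 at 0.25 h, 1.11 and 1.19 at 1 h, 1.12 and 1.09 at 3 h, against 1.15 and 1.14 at 12 h.

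**Figure D4:**
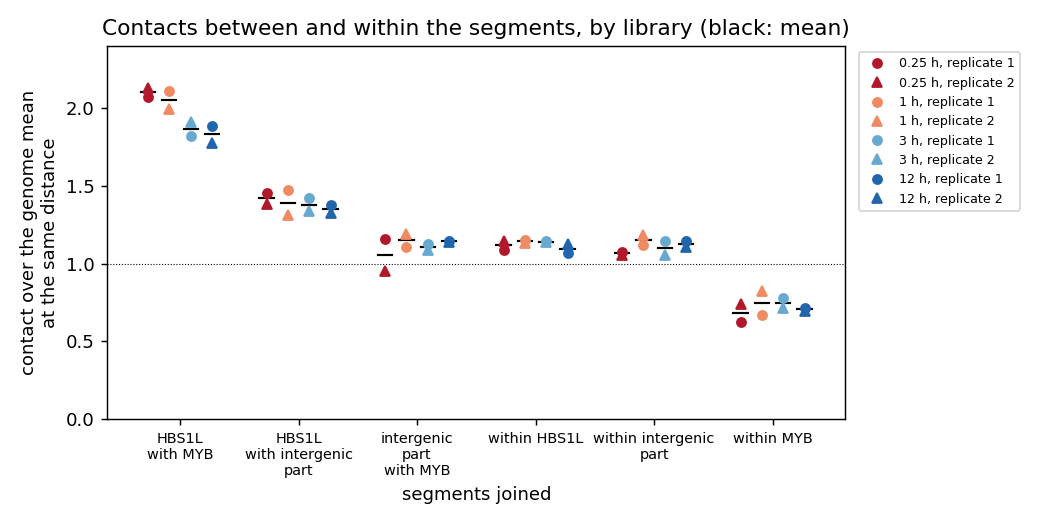
Contact over the genome mean at the same distance (vertical axis) between and within the 3 segments (horizontal axis), 1 point per library, with a black bar at the mean of each digestion time. HBS1L with MYB lies highest, at 1.78 to 2.13, and the pair within MYB lowest, at 0.62 to 0.82.

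No member pair passed the test for a change with digestion time. Of the 78 pairs 75 had the required mean of 10 contacts per library, and limma called 0 at 0.25, 1 and 3 h against 12 h, as it called 0% of 1160815 pairs genome-wide. At an unadjusted p under 0.05, 1, 0 and 1 member pairs passed in limma, beside 6.13%, 4.30% and 2.95% of all pairs. Without balancing limma also called 0 pairs. There 14, 7 and 4 of 75 member pairs passed an unadjusted p under 0.05 in limma, beside 134046, 93896 and 65223 of 1160815 pairs. The member share lay above that of all pairs at 0.25 h and near it at 1 and 3 h. The median member differences were 0.28, 0.25 and 0.22 in place of −0.02, 0.02 and 0.01. Without 0.25 h replicate 1, limma called 3693 pairs genome-wide at 0.25 h, 57 higher and 3636 lower, and 0 member pairs. Of the pairs that passed with balancing, the one at 0.25 h joined HBS1L bin 135320001 with the second MYB bin (log2 difference 0.58, adjusted p = 0.814, limma), and that at 3 h joined 135380001 with the second MYB bin (−0.68, adjusted p = 1, limma). These pairs were singled out after their values were seen. For pairs of the MYB start bin with other members the SE of a log2 difference was 0.18 to 0.30. A change of that size in a single pair was not detectable with 2 libraries per time. Larger differences were not called either after adjustment over 1160815 pairs. Outside the members, the MYB start bin with bin 135580001 differed by −0.69 ± 0.22 (SE) at 1 h and was not called.

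Outside the members, the bin that met the MYB start most relative to the mean at its distance was chr6:135740001-135760000, 240 kb away on the side of AHI1. Its ratios were 4.52 and 3.97 at 0.25 h, 4.70 and 4.00 at 1 h, 4.46 and 4.82 at 3 h, against 3.99 and 3.64 at 12 h, from 632 contacts in all. The 0.25 and 12 h libraries overlapped, and the log2 difference between them was 0.15 ± 0.20 (SE, adjusted p = 0.931, limma). The mean of 4.26 exceeded every ratio between the MYB start and a member and stood at percentile 99.8 for its distance. The adjoining bin 135720001 had a ratio of 2.77 ± 0.31 (SD, n = 8). The next bin by mean ratio, 134540001 at the edge of the window, had 1 to 5 contacts per library and ratios from 0.44 to 5.40, too few to place it.

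The high contact with bin 135740001 belonged to the whole stretch. All 13 members met it at 2.23 to 4.93 times the mean for their distance, at percentiles 97.3 to 99.9. The second MYB bin reached 4.91 ± 0.62 (SD, n = 8) and the low-coverage intergenic bin 135460001 4.93 ± 1.18, the latter from 211 contacts. HBS1L bin 135280001, 460 kb away, still had 3.40 ± 0.80. The lowest was intergenic bin 135420001, at 2.23 ± 0.60. Past this bin the contact of the MYB start dropped to 1.90 in the next bin, 0.80 in the one after and 0.34 at 340 kb.

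The insulation score is the mean balanced contact between the 200 kb before and the 200 kb after a bin, as a log2 ratio to the chromosome mean, and a low score marks a boundary that few contacts cross. One boundary lay at or just beyond the far end of HBS1L and another beyond MYB. On the HBS1L side the lowest mean score was in member bin 135280001, of which 19 kb lie in HBS1L, where it was −0.93 and −0.75 at 0.25 h, −0.83 and −1.02 at 1 h, −0.81 and −0.86 at 3 h, against −0.85 and −0.94 at 12 h. The mean of −0.88 stood at percentile 1.70 of all bins, and the 0.25 and 12 h libraries overlapped. By library the minimum lay in the bin before it, 135260001, in both 0.25 h libraries, in 135280001 in both 12 h libraries, and in one of each at 1 h and at 3 h, an order that was not tested. On the far side of MYB it lay in chr6:135760001-135780000 in all 8 libraries, with scores of −1.71 to −1.56 and a mean of −1.65 at percentile 0.036. That bin adjoins the one with which all members had high contact.

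Between these minima the score rose along HBS1L, from −0.64 in bin 135300001 to 0.32 in 135400001, and was 0.43 to 0.46 over the intergenic part. It dipped at the MYB start bin, to 0.26, and was 0.36 in the second MYB bin. By library the MYB start bin scored 0.28 and 0.25 at 0.25 h, 0.18 and 0.31 at 1 h, 0.23 and 0.26 at 3 h, against 0.29 and 0.29 at 12 h. The 1 h libraries spanned all others, and the 12 h libraries lay slightly above those of 0.25 and 3 h. Each library gave a lower score here than in the intergenic bin before it. The dip was shallow, with a prominence of 0.20 beside 1.52 and 2.62 for the boundaries.

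**Figure D5:**
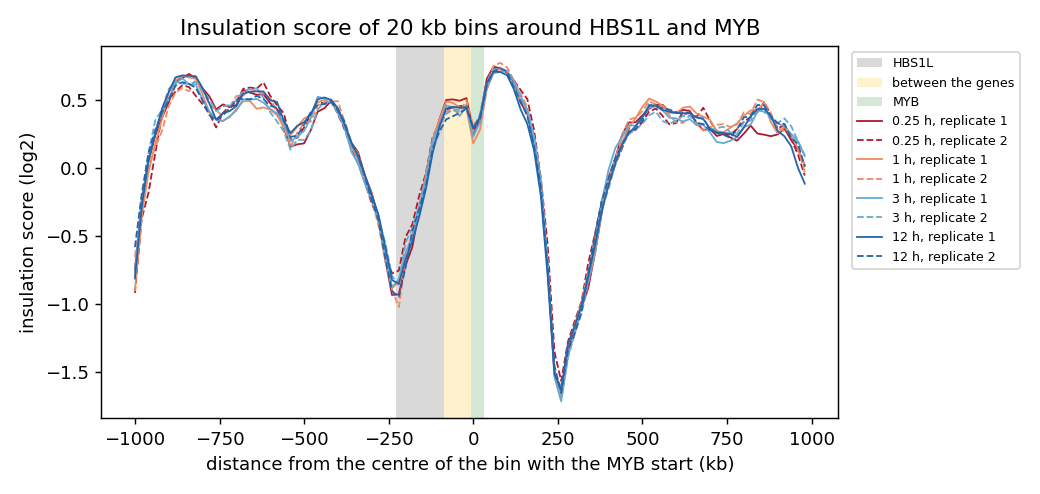
Insulation score (vertical axis, log2) of the 100 bins of the window against distance from the MYB start bin (horizontal axis, kb), 1 line per library, solid for replicate 1 and dashed for replicate 2. The minima at a mean of −0.88 on the HBS1L side, where its bin shifts by 20 kb between libraries, and −1.65 on the far side of MYB occur at every digestion time, with a shallow dip to 0.26 at the MYB start.

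Limma called 0 of 13 member bins in the insulation score at 0.25, 1 and 3 h against 12 h, and 0% of 130586 bins genome-wide. Without 0.25 h replicate 1 it called 200 bins genome-wide at 0.25 h and 0 members. At an unadjusted p under 0.05 it passed 0 members at each time, and 10417, 5889 and 4092 of all bins. The member differences at 0.25 h ran from −0.03 to 0.09, with an SE of 0.05 to 0.08. Without balancing, limma called 13, 12 and 12 members higher at 0.25, 1 and 3 h, beside 25.5%, 20.4% and 15.4% of all bins. Scores without balancing keep the differences between bins in their contact totals. The sign at the MYB start bin turned from −0.03 to 0.23 at 0.25 h.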

How the data were processed

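The authors deposited, for each library and sequencing run, a balanced contact signal for pairs of bins, scaled to give each bin an equal sum. The submitters' processing notes name HiC-Pro 2.11.1, Bowtie2 2.3.4.1 and build hg19, without order or settings. The filter that left 137714 to 137889 of 154795 bins in a file is not given in the sources used here. The second run, in 20 kb bins, was used, and the first, in 50 kb bins, only as an alternative. Bin numbers were turned into coordinates on the basis that the highest number equals the number of bins in hg19, from chromosome 1 to Y and M.

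Whole contacts were recovered from the signal by solving for the factor of each bin. In each library 77.2% to 78.3% of listed pairs held 1 contact, 100% of values came within 0.01 of a whole number, and recovered totals equalled the signal totals. Bins needed a mean of 50 contacts per library and pairs, 20 to 500 kb apart, a mean of 10.

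Contacts leaving a bin (log2 per 1000000 contacts leaving usable bins, 0.5 added), the ratio of contacts inside to contacts leaving, the distance-scaled signal of pairs (0.1 added before log2) and the insulation score were fitted with limma 3.58.1 in R 4.3.3 (lmFit, eBayes with trend) over all features and all 8 libraries, as 4 times. Benjamini-Hochberg adjustment ran over all features, with a threshold of 0.05. Fits were tested on simulated data. Python 3.11.15, numpy 2.4.6 and scipy 1.17.1 did the rest.

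Replicate numbers came from the titles. Same-numbered libraries deviated together in contacts leaving a bin (correlations of replicate differences between times 0.11 to 0.25), so the numbers meet the mark for pairing there but not in the other measures (lowest −0.001 to 0.017). The fits reported use no block, and the blocked fit is an alternative.

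Members and lists were chosen with earlier results of these data known. Named were MYB, HBS1L, all member bins, pairs of the MYB start bin with other members, called pairs (none), the nearest insulation minimum on each side and the 3 outside bins with the highest ratio to the MYB start bin. Alternatives were another scaling, cis contacts only, contacts inside the bin included, other minimum counts, pseudocounts and squares, no balancing, chromosome 6 as reference, the replicate block, only the times compared, each library left out and the first run. Scaling by all contacts of the library was added after seeing the data.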

Additional observations from a re-analysis of the deposited data

How the results depend on the processing

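Counts of members past the threshold stayed within 1.5 times their value except in the first run, without balancing, for contacts leaving a bin over all contacts of the library and, for the self-contact ratio at 3 h, without 3 h replicate 1 (6 in place of 10, with 38.3% of all bins in place of 56.8%). Over all contacts of the library, an alternative chosen after seeing the data, 5, 5 and 5 members were called for contacts leaving a bin at 0.25, 1 and 3 h, of which 4, 4 and 5 higher. In that setting 74.0%, 58.3% and 52.4% of all bins were called, and 3.52%, 3.69% and 3.33% were higher. There the log2 difference at 0.25 h turned negative in HBS1L bins 135280001 (−0.11), 135340001 (−0.026) and 135380001 (−0.030) and MYB bin 135520001 (−0.025), since that denominator holds the contacts inside bins and lowers every bin at 0.25 h by the same 0.19. In the first run, where the same rule gave 5 bins of 50 kb, the count for contacts leaving a bin was 5, 2 and 2 at 0.25, 1 and 3 h, beside 10.7%, 6.80% and 3.05% of all bins higher, and for the self-contact ratio 4, 4 and 3, beside 65.9%, 51.7% and 39.9%. Fewer bins cover the members there, and the libraries were shallower. Without balancing, the count for the insulation score was 13, 12 and 12 in place of 0. In that setting the log2 difference also turned from negative to positive in MYB bin 135500001 (0.23 at 0.25 h, 0.16 at 1 h and 0.15 at 3 h), MYB bin 135520001 (0.30 at 0.25 h and 0.19 at 1 h) and intergenic bin 135460001 (0.22 at 3 h), and the cause was not tested.

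Leaving out 1 library at a time gave 10 to 12, 9 to 11 and 8 to 12 members for contacts leaving a bin, beside 14.5% to 20.6%, 10.4% to 21.3% and 6.89% to 17.5% of all bins higher. It gave 9 to 11, 8 to 10 and 6 to 10 for the self-contact ratio, beside 54.3% to 63.7%, 47.4% to 66.4% and 38.0% to 62.6%, and 0 to 0 for pairs and for the insulation score. With the replicate number as a block, pairs and insulation scores stayed at 0. The self-contact ratio then gave 11, 10 and 10, beside 65.7%, 62.4% and 57.3% of all bins higher. Among single bins and pairs the block left 150 results on their side of the threshold and added 3 calls. No filter on low counts left the same bins. Of the mean segment ratios, all 12 were higher without balancing, among them HBS1L with MYB at 3.71 in place of 1.96, HBS1L with the intergenic part at 2.96 in place of 1.39 and within HBS1L at 2.04 in place of 1.13. In the first run the last, there 1 pair of 50 kb bins, was 0.785. Over all alternatives 19 segment values moved by more than the spread and 112 did not. At the minimum of 10 contacts 3 member pairs were not tested.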
